A study of Triticum aestivum with 6 samples.

Results

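The 4 genes described here are omega-gliadin genes of bread wheat (Triticum aestivum) that had counts in grain of a white-grained wheat and 0 counts in grain of a purple-grained wheat: TraesCS1B02G011463 and TraesCS1B02G011474 on chromosome 1B, and TraesCSU02G210181 and TraesCSU02G165233 on sequence not placed on a chromosome. They were listed by identifier, 4 of 107891 genes in the table, and the list was made from these same counts. Their difference between the grain types is therefore given as a description, without a test. RNA sequencing libraries came from grain of the purple-grained wheat and of the white-grained wheat, 3 libraries per grain type, all collected 30 days after flowering from plants grown in pots in a climate chamber. The labels name no cultivar, genotype or number of plants for either wheat, so grain colour cannot be told apart here from any other difference between them. Whether the 3 libraries of a colour were made from different plants is not stated, so the spread behind each p-value may be technical.

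Gliadins and glutenins are the prolamins of wheat, the storage proteins that form gluten, and their genes are transcribed in the starchy endosperm during grain filling. Omega-gliadins are the sulphur-poor gliadins, built mostly of glutamine- and proline-rich repeats and with few or no cysteines, so that they stay outside the disulphide-linked glutenin polymer. Their genes lie near the ends of the short arms of the group 1 chromosomes, close to the genes of gamma-gliadins and low molecular weight glutenins, and "fast" refers to the mobility of the protein on a gel. Omega-gliadins of the B genome are known as wheat allergens.

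The libraries held 102868886, 98028719 and 80898310 counts in purple grain, against 78660932, 81075605 and 88002127 in white grain. Grain is the labelled tissue, although the protocol for RNA names stems and buds. Levels are given as counts and as FPKM, the authors' measure of fragments scaled for gene length and library size. All 3 puroindoline genes, markers of the starchy endosperm, were counted and summed to 10094 to 21141 FPKM in purple grain and 13090 to 22943 FPKM in white grain, and the 4 high molecular weight glutenin genes to 3274 to 5562 FPKM in purple grain and 3125 to 4280 FPKM in white grain. For granule-bound starch synthase (4 genes) the range was 42.3 to 175 FPKM in purple grain and 126 to 152 FPKM in white grain, and for alpha-amylase inhibitors (24 of 26 genes counted) 13002 to 60795 FPKM in purple grain and 30671 to 58047 FPKM in white grain. Markers of embryo and aleurone did not overlap between the grain types: Em proteins (7 of 7 genes counted) summed to 66.6 to 1323 FPKM in purple grain and 1.37 to 6.05 FPKM in white grain, and late embryogenesis abundant proteins (14 of 16) to 662 to 2004 FPKM in purple grain and 383 to 551 FPKM in white grain. No gene was described as oleosin. Markers of green tissue did not overlap either, with chlorophyll a-b binding proteins (63 of 68) at 30.1 to 240.4 FPKM in purple grain and 253 to 325 FPKM in white grain, and the small subunit of ribulose bisphosphate carboxylase (17 of 19) at 1.01 to 1.56 FPKM in purple grain and 1.81 to 5.22 FPKM in white grain. Among the endosperm markers, purple replicates 1 and 2 lay below every white library for puroindolines, at 12131 and 10094 FPKM. The same held for granule-bound starch synthase, at 50.1 and 42.3 FPKM, and for alpha-amylase inhibitors, at 15164 and 13002 FPKM. High molecular weight glutenin genes, at 3274 and 3455 FPKM in those libraries, overlapped with white grain. The part of all these marker differences in the results was not tested. Purple replicate 3 stood apart from its group, with 149023 FPKM summed over all gliadin genes against 54524 and 57791 in purple replicates 1 and 2. White replicate 1 differed from the other white libraries at storage protein genes of chromosome 1A: of 94 storage protein genes that reached 100 FPKM in a white library, 6 varied more than 20-fold among the white libraries, and all 6 were on 1A. Results that these libraries change are given with and without them.

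TraesCSU02G210181, described as omega-gliadin (unplaced sequence, 312250866 to 312251240, plus strand), had 0 counts in purple replicates 1, 2 and 3, against 7579, 20415 and 13201 counts in white replicates 1, 2 and 3. On the FPKM scale these were 0 in every purple library and 239, 626 and 376 in the white libraries, a mean of 414 ± 196 (SD, n = 3). It was the highest of the 4 genes per unit length and ranked 156 among all genes by mean FPKM in white grain. With 3 counts allowed in each purple library, its level was at least 4560-fold lower in purple grain. In bulk grain RNA, fewer endosperm cells and less RNA per cell cannot be told apart. The part of either in these counts was not tested.

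TraesCS1B02G011463, described as fast omega-gliadin after a protein of wild emmer (1B, 5354835 to 5356085, minus strand), had 0 counts in each purple library, against 12125, 30440 and 17656 counts in white replicates 1, 2 and 3. It therefore took the most reads of the 4 genes, although per unit length it came after TraesCSU02G210181, with 0 FPKM in purple grain and 115, 280 and 151 FPKM in the white libraries (182 ± 86.8, SD, n = 3). The annotated spans, 1251 bp against 375 bp, set this order, since the deposited FPKM followed the count divided by the annotated span to within 2.48% among omega-gliadin values of a library with at least 20 counts. Its level was at least 6680-fold lower in purple grain.

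TraesCS1B02G011474, described as omega-gliadin (1B, 5391662 to 5392817, minus strand, 1156 bp), had 0 counts in each purple library, against 5454, 12763 and 11679 counts in the white libraries. Its FPKM was 0 throughout purple grain and 55.8, 127 and 108 in white replicates 1, 2 and 3 (96.9 ± 36.8, SD, n = 3), at least 3328-fold lower in purple grain. TraesCSU02G165233, also described as omega-gliadin (unplaced, 240310692 to 240311091, minus strand, 400 bp), had 0 counts in each purple library, against 1744, 4804 and 3436 counts in the white libraries. That gave 0 FPKM in purple grain and 51.6, 138 and 91.7 FPKM in white replicates 1, 2 and 3 (93.8 ± 43.3, SD, n = 3), at least 1105-fold lower in purple grain.

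For none of the 4 genes did the grain types overlap, which follows from their choice; all purple libraries lay below all white ones for 19.9% of tested genes. The genes together took 0% of the counts of each purple library and 0.0342%, 0.0844% and 0.0522% of those of white replicates 1, 2 and 3. A count of 0 allows a single gene up to 0.0292, 0.0306 and 0.0371 CPM (counts scaled to library size) in purple replicates 1, 2 and 3, a limit that covers counting error only. In white grain they summed to 461, 1171 and 726 FPKM in replicates 1, 2 and 3 (786 ± 359, SD, n = 3). This was 10.3%, 29.2% and 14.0% of the summed FPKM of all omega-gliadin genes, and 0.422%, 1.79% and 0.586% of that of all gliadin genes. Purple replicate 3, whose summed gliadin FPKM was above that of each white library, also had 0 counts for the 4 genes.

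**Figure D1:**
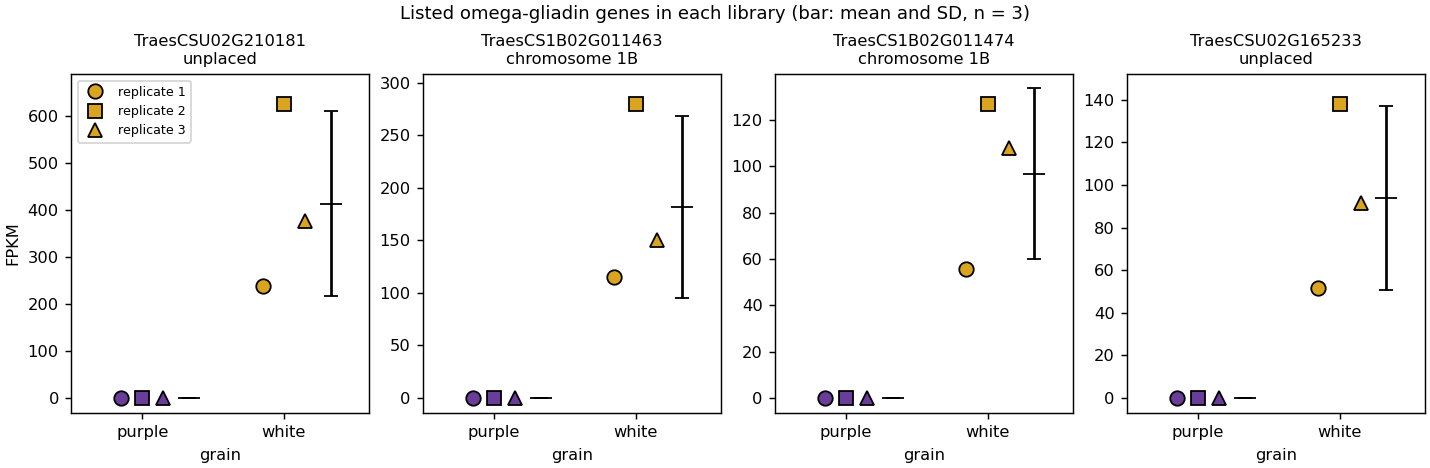
FPKM of the 4 listed omega-gliadin genes in each library (points; marker shape gives the replicate) with the mean and SD of each grain type (n = 3) beside the points, on a linear axis that differs between panels. The purple libraries lie at 0 in every panel, and white replicate 2 is the highest white library for each gene.

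All 4 genes passed the expression filter used for tests (an average of 0.5 FPKM or more across libraries), and they did so through white grain alone. A total of 921 genes had a mean in white grain at or above that of the lowest of the 4 (93.8 FPKM). Of these, 0.434% had 0 counts in all purple libraries, which were the 4 listed genes themselves, so that nothing is read from this share. Without white replicate 2, 7 genes met the same description. In the opposite direction 1 gene had 0 counts in white grain and a purple mean at or above 93.8 FPKM. Just outside the list by white mean, the omega-gliadin gene TraesCS1B02G011471 had 0 counts in purple grain and 77.3 ± 53.8 FPKM in white grain. Just outside it by purple counts, the omega-gliadin gene TraesCS1B02G011467 had 1, 0 and 1 counts in purple grain and 87.6 ± 33.5 FPKM in white grain (SD, n = 3).

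Within white grain the 4 genes kept nearly the same order in each library. TraesCSU02G210181 stood above TraesCS1B02G011463 in every white library, with ratios of the second to the first of 0.480, 0.447 and 0.401. TraesCS1B02G011463 in turn stood above both remaining genes, at 2.05, 2.20 and 1.40 times TraesCS1B02G011474 and at 2.22, 2.03 and 1.64 times TraesCSU02G165233 in white replicates 1, 2 and 3. TraesCS1B02G011474 and TraesCSU02G165233 changed places between libraries, with a ratio of 1.08, 0.919 and 1.18, and did not differ beyond that spread. The steadiest ratio was that of the unplaced pair, TraesCSU02G210181 over TraesCSU02G165233, at 4.64, 4.53 and 4.10 (coefficient of variation 6.44%), and the least steady was that of the 1B pair (22.8%). Omega-gliadin copies are close in sequence, and how reads matching several copies were counted is not given in the sources used here, so the split of counts among copies is uncertain.

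The white libraries themselves ran from low to high in the order replicate 1, 3, 2 for each of the 4 genes by FPKM. White replicate 2 held 2.27 to 2.68 times the FPKM of white replicate 1 and 1.18 to 1.86 times that of white replicate 3. This was not the pattern of most prolamins. Of 17 gamma-gliadin genes at a white mean of at least 1 FPKM, 15 were lowest in white replicate 2 and 0 were highest there. The same library was lowest for 37 of 44 alpha/beta-gliadin genes, 11 of 12 low molecular weight or other glutenin genes, 7 of 7 avenin-like genes and 2 of 4 high molecular weight glutenin genes. Of the 4 unlisted omega-gliadin genes at that level that had at most 1 count in every purple library, 3 were highest in white replicate 2. Of all 39115 genes at that level, 54.1% were highest in white replicate 2 by FPKM, and 5704 genes were lowest there. Globulin or triticin genes also differed from the prolamins, with 8 of 15 highest in that library and a median ratio of white replicate 2 to the mean of the others of 1.70. The FPKM in white replicate 2 over the mean of white replicates 1 and 3 had a median of 1.98 for the 4 genes, 0.426 for gamma-gliadins, 0.668 for alpha/beta-gliadins, 0.297 for low molecular weight or other glutenins and 1.19 for all genes. On CPM with TMM scaling (trimmed mean of M-values, which evens out composition between libraries), the 4 genes had a median ratio of 1.64 and all genes 0.974, and 30.0% of all genes were highest in white replicate 2. On that scale 12573 of the 39115 genes were lowest in white replicate 2, and so were 15 of the 17 gamma-gliadin genes. Of the 4 listed genes, 3 were highest in white replicate 2 on that scale, and TraesCS1B02G011474 was highest in white replicate 3.

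**Figure D2:**
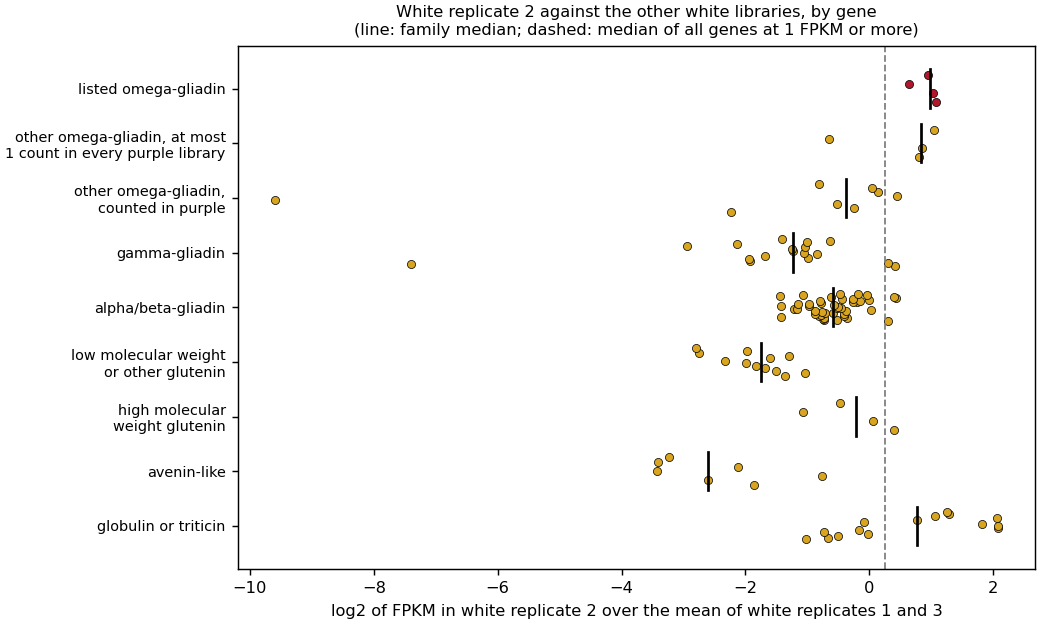
Each point is a storage protein gene with a white mean of at least 1 FPKM, placed by the log2 of its FPKM in white replicate 2 over the mean of white replicates 1 and 3; black lines are family medians and the dashed line is the median of all genes at that level. The 4 listed omega-gliadin genes lie to the right, with a median ratio of 1.98, while the gamma-gliadin, glutenin and avenin-like medians lie to the left of the dashed line; the globulin or triticin median of 1.70 also lies to the right.

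The table describes 22 genes as omega-gliadins: 5 on 1A, 8 on 1B, 3 on 1D and 6 on unplaced sequence. All 8 on 1B, and 5 of the 6 unplaced ones, had at most 1 count in every purple library and some counts in white grain. None of those on 1A or 1D did, and TraesCS1A02G033288 (1A) had 0 counts in all 6 libraries. Besides the 4 listed genes, 7 others had 0 counts in all purple libraries and counts in white grain. Of these 7, 2 passed the expression filter, where 0.685% of all tested genes had 0 counts throughout purple grain. A gene with 0 counts in purple grain can pass that filter through white grain alone, so nothing is read from these numbers.

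Of the 18 omega-gliadin genes outside the list, 12 were tested, and 4 were lower and 0 higher in purple grain, where 2.32% of all 48492 tested genes were lower and 2.87% higher (edgeR quasi-likelihood test; a call needs a log2 difference of at least 1 and an adjusted p under 0.05). Before adjustment 5 of the 12 had an edgeR p under 0.05, where 12967 of all 48492 tested genes did. With DESeq2 4 of the 12 were lower and 0 higher, where 3008 of all tested genes were lower and 4561 higher. The median log2 difference of the 12 was -0.58, against 0.02 for all tested genes. The 4 lower genes passed the expression filter through white grain alone, so their number was partly set by that filter.

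All 4 lower genes lay on 1B or on unplaced sequence, and 3 of them lie beside or between the listed 1B genes. TraesCS1B02G011460 had 1, 0 and 1 counts in purple grain, against 4723, 11389 and 8823 in white grain, and was 12967-fold lower in purple grain (95% exact counting interval 3589 to 107077; edgeR adjusted p = 0.00305). TraesCS1B02G011467, which lies between the listed 1B genes, had 1, 0 and 1 counts in purple grain, against 8363, 18068 and 12344 in white grain, 20164-fold lower in purple grain (95% exact counting interval 5582 to 166506; edgeR adjusted p = 0.00287). These intervals cover counting error only. TraesCS1B02G011471, also between the listed genes and annotated with only 270 bp, had 0 counts in purple grain and 850, 1318 and 3500 counts in white grain, at least 638-fold lower in purple grain (edgeR adjusted p = 0.0127). It was highest in white replicate 3, unlike the 4 listed genes. TraesCSU02G002423, described as fast omega gliadin on unplaced sequence, had 0 counts in purple grain and 361, 1152 and 800 counts in white grain, at least 255-fold lower in purple grain (edgeR adjusted p = 0.00812). These 4 calls remained without any single library, with an edgeR adjusted p of at most 0.0471. Those fits kept the expression filter made on all 6 libraries, which the 4 genes passed through white grain alone. Their stability is therefore no independent support.

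The 8 omega-gliadin genes with more than 1 count in a purple library were not called in either direction. TraesCSU02G272393, unplaced and the most expressed, had 2158, 2499 and 4354 FPKM in purple replicates 1, 2 and 3, against 2036, 1452 and 3061 FPKM in white replicates 1, 2 and 3 (edgeR adjusted p = 0.523). TraesCS1D02G002063 on 1D had 1223, 1068 and 1468 FPKM in purple grain, against 892, 901 and 851 FPKM in white grain, groups that did not overlap but did not pass the test (edgeR adjusted p = 0.300). Of the 12 tested genes, 2 had every purple library above every white one and 4 had every purple library below, where the shares over all tested genes were 13.3% above and 19.9% below. The 2 other 1D genes, TraesCS1D02G000567 and TraesCS1D02G000582, had 32.3 ± 38.9 and 20.6 ± 26.7 FPKM in purple grain, against 79.6 ± 50.1 and 22.8 ± 8.80 FPKM in white grain (SD, n = 3; edgeR adjusted p = 0.482 and 0.995).

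On 1A, TraesCS1A02G005387 had 114 ± 45.1 FPKM in purple grain and 74.7 ± 14.6 FPKM in white grain, and TraesCS1A02G005368 had 28.8 ± 15.4 FPKM in purple grain and 24.4 ± 9.05 FPKM in white grain (SD, n = 3; edgeR adjusted p = 0.293 and 0.692). TraesCS1A02G005315 had 57.7, 51.9 and 205 FPKM in purple grain, against 143, 16.7 and 14.8 FPKM in white replicates 1, 2 and 3 (edgeR adjusted p = 0.638). TraesCS1A02G033501 had 0.164, 0.306 and 2.34 FPKM in purple grain, against 648, 0.417 and 0.774 FPKM in white replicates 1, 2 and 3 (edgeR adjusted p = 0.173). White replicate 1 alone was high for this gene, whereas the 4 listed genes were high in all 3 white libraries.

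**Figure D3:**
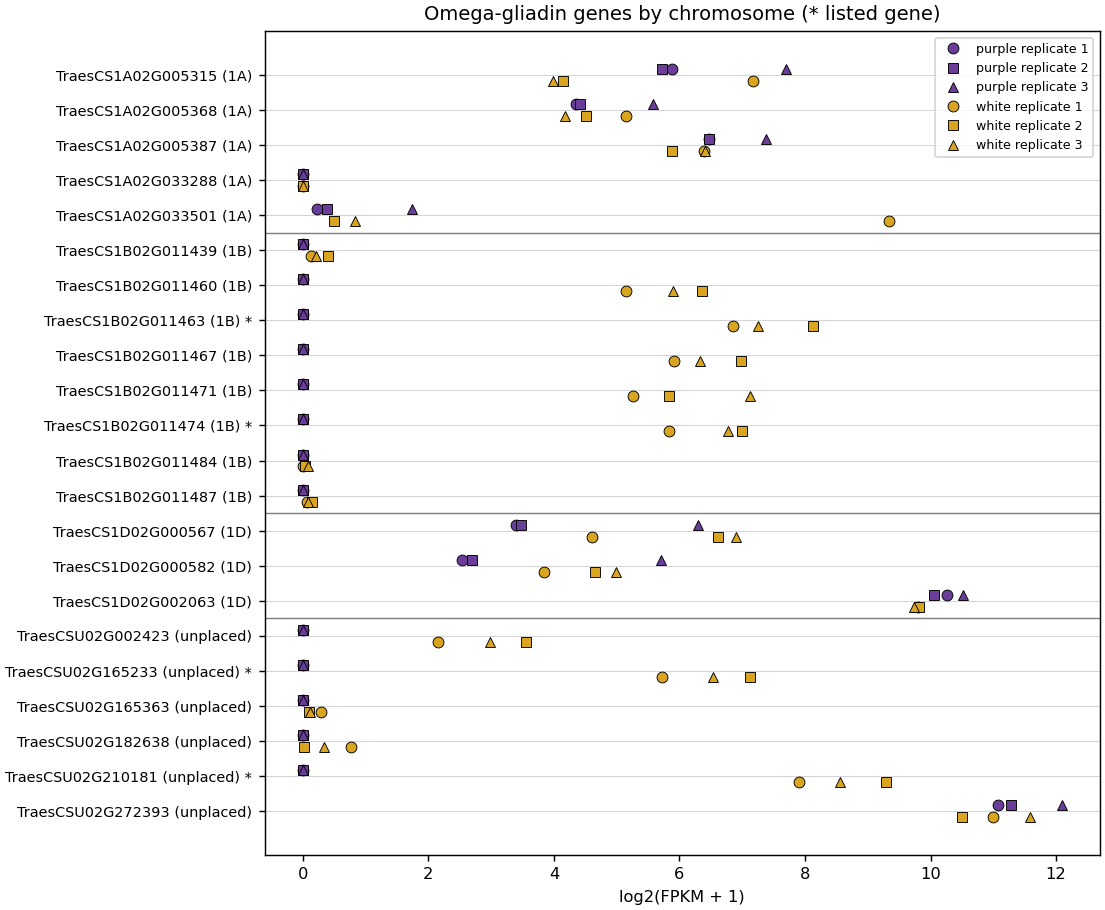
Level of the 22 omega-gliadin genes as log2(FPKM + 1) in each library, with genes grouped by chromosome, purple libraries on the upper and white libraries on the lower line of each row, and an asterisk at the 4 listed genes. All genes on 1B lie at or next to 0 in the purple libraries, while those on 1D are counted in all 6 libraries.

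The summed FPKM of the 18 unlisted omega-gliadin genes was 3560, 3743 and 6370 in purple replicates 1, 2 and 3, against 4008, 2843 and 4461 in white replicates 1, 2 and 3. The means of 4558 ± 1572 in purple grain and 3771 ± 835 in white grain (SD, n = 3) did not differ beyond the spread (p = 0.7 in an exact two-sided permutation test that cannot go below 0.1). For all 88 gliadin genes other than the 4, the sums averaged 87113 ± 53641 FPKM in purple grain and 98818 ± 30720 FPKM in white grain (SD, n = 3), a difference of -11705 FPKM (p = 0.8 in the same exact test). The sign of that difference turned without purple replicate 1, purple replicate 2 or white replicate 3, where it was 4589, 2956 and 498 FPKM.

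The listed 1B genes start 36.8 kb apart, with 2 further omega-gliadin genes between them. With 20 annotated genes on either side, 42 neighbours between 4821131 and 6312457 on 1B were examined, of which 16 had 0 counts in all 6 libraries and 17 were tested. Of the 17, 12 were lower and 0 higher in purple grain, against 2.32% lower among all tested genes, and their median log2 difference was -5.22. These include 3 omega-gliadin genes counted above (TraesCS1B02G011460, TraesCS1B02G011467 and TraesCS1B02G011471), which passed the filter through white grain alone. Leaving them out, 9 of 14 were lower, with a median log2 difference of -4.14, and all 9 averaged 0.5 FPKM or more in purple grain. Of the 12 lower genes, 11 are storage protein genes, as are 14 of the 17 tested neighbours. Of the 3 other tested neighbours, 1 was lower. At the tested gamma-gliadin genes to the left and glutenin genes to the right, every purple library had counts. The number of lower neighbours was 5 without purple replicate 2 and 8 without purple replicate 1. Lower calls over all tested genes also fell, from 1127 to 351 and 562 in those fits.

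Going outward to the left from TraesCS1B02G011463, the nearest expressed genes after TraesCS1B02G011460 were an avenin-like gene, a cyclophilin-like gene and a gamma-gliadin gene. TraesCS1B02G011300, described as avenin-3, had 2.07, 1.95 and 10.2 FPKM in purple grain, against 3942, 679 and 4315 FPKM in white grain (log2 difference -9.25, SE 1.36; edgeR adjusted p = 0.0181). That call was lost without purple replicate 1, purple replicate 2 or white replicate 3, with an adjusted p of at most 0.0833. TraesCS1B02G011100, a cyclophilin-like gene (cyclophilins are prolyl isomerases that aid protein folding), had 3.24, 3.43 and 5.82 FPKM in purple grain, against 27.9, 32.9 and 39.6 FPKM in white grain (log2 difference -2.90, SE 0.32; edgeR adjusted p = 0.00876). TraesCS1B02G011000, described as gamma-gliadin B, had 0.399, 1.02 and 3.90 FPKM in purple grain, against 4002, 2419 and 5919 FPKM in white grain (log2 difference -11.09 ± 1.32, SE; edgeR adjusted p = 0.0103, and 0.0599 without purple replicate 2). Both storage genes were highest in purple replicate 3 among the purple libraries, where the 4 listed genes had 0 counts.

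To the right of TraesCS1B02G011474, 3 low molecular weight glutenin genes follow an uncharacterised gene. TraesCS1B02G011700 had 15.5, 20.1 and 17.6 FPKM in purple grain, against 752, 229 and 1071 FPKM in white grain (log2 difference -5.22, SE 0.71; edgeR adjusted p = 0.0153, and up to 0.0760 without purple replicate 1 or 2). TraesCS1B02G011523 had 65.6 ± 57.8 FPKM in purple grain and 1231 ± 636 FPKM in white grain, which missed the threshold (SD, n = 3; edgeR adjusted p = 0.050009). TraesCS1B02G011600 had 181, 228 and 597 FPKM in purple grain, against 824, 238 and 864 FPKM in white grain, and the groups overlapped (edgeR adjusted p = 0.466). The uncharacterised gene TraesCS1B02G011500 had 2.94 ± 2.56 FPKM in purple grain and 12.5 ± 0.920 FPKM in white grain (SD, n = 3; edgeR adjusted p = 0.107). Distance to the listed genes did not order the differences on this side.

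**Figure D4:**
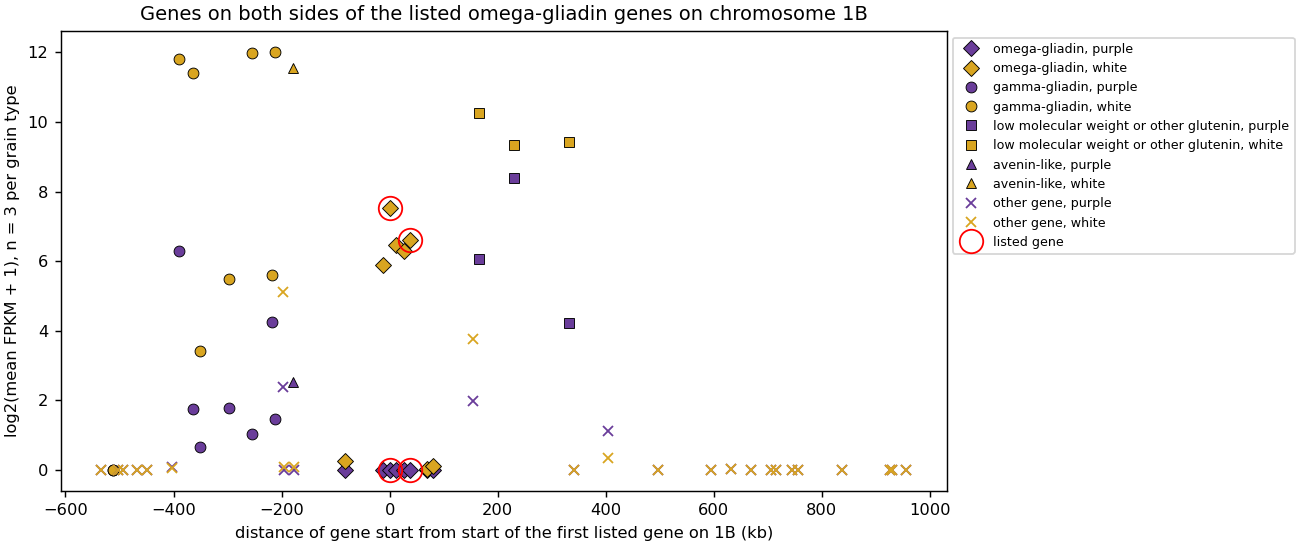
Mean level of each annotated gene on both sides of the listed 1B genes as log2(mean FPKM + 1), n = 3 per grain type, against the distance of its start from that of TraesCS1B02G011463 in kb; marker shapes give the family and red circles the listed genes. The omega-gliadin genes in the middle lie at 0 in purple grain, and the expressed gamma-gliadin genes to the left and glutenin genes to the right have lower means in purple grain, above 0.

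Of the 16 genes listed within 4 places of either unplaced member, 13 had 0 counts in all 6 libraries. Among the rest, TraesCSU02G165363, described as fast omega gliadin, had 0 counts in purple grain and 29, 10 and 12 counts in white grain. TraesCSU02G209800 and TraesCSU02G165200 had counts in both grain types. Neighbouring places there do not show that genes are close on a chromosome.

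Levels on 1B were then set against those on 1D within each library, for 3 prolamin families. The unlisted omega-gliadin genes of 1B summed to 0.000139%, 0% and 0.000528% of the FPKM of the 1D omega-gliadin genes in purple replicates 1, 2 and 3, against 14.1%, 25.7% and 27.6% in white replicates 1, 2 and 3. Gamma-gliadin genes of 1B summed to 0.447%, 0.593% and 1.04% of those of 1D in purple grain, against 123%, 131% and 125% in white grain. For low molecular weight or other glutenin genes the shares were 5.92%, 5.81% and 4.84% in purple grain, against 40.9%, 37.9% and 50.4% in white grain. For each family the purple libraries lay below the white ones on the log2 scale with 1 FPKM added (differences of -8.12, -7.57 and -2.95; p = 0.1 each by exact permutation, two-sided, and 0.1 adjusted over the 3 comparisons, the smallest this design allows). These comparisons were added after seeing the data.

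**Figure D5:**
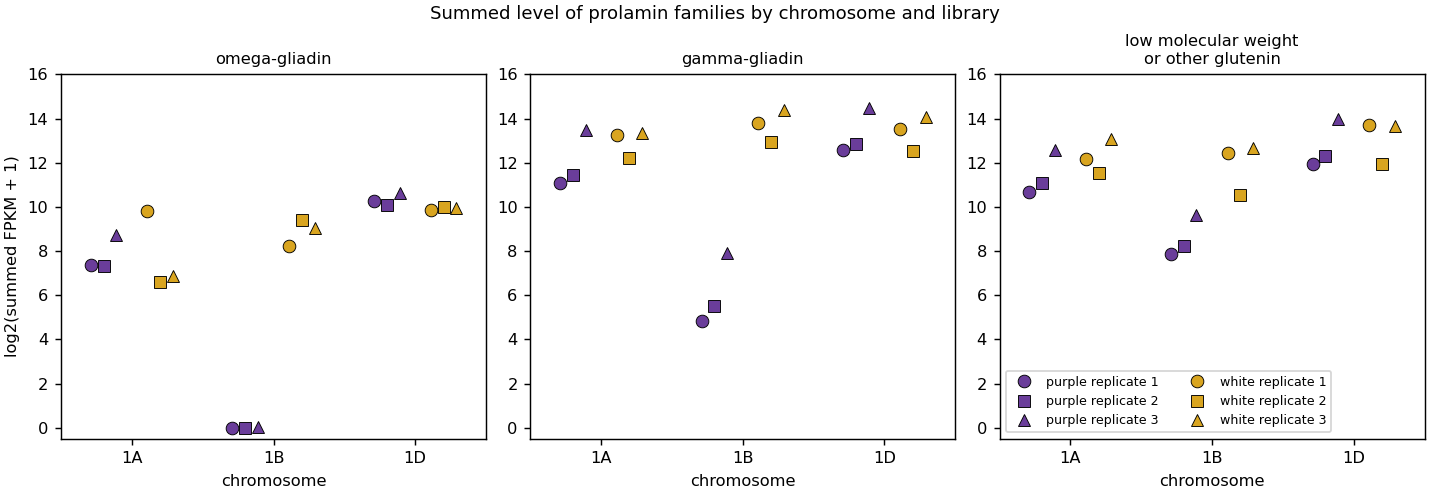
Summed level of omega-gliadin, gamma-gliadin and low molecular weight or other glutenin genes on chromosomes 1A, 1B and 1D in each library, as log2(summed FPKM + 1); the omega-gliadin panel includes the listed genes of 1B. On 1B all purple libraries lie below all white libraries in each panel, while on 1D the grain types overlap for gamma-gliadins and glutenins.

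The remaining storage protein families give the setting of the listed genes in the same fit. Over all tested genes, 2.32% were lower and 2.87% higher. Of 17 gamma-gliadin genes, 6 were lower and 0 higher in purple grain, all 6 on 1B, with a median log2 difference of -1.58. The gamma-gliadin gene with the largest difference, TraesCS1B02G010800, had 0.519, 0.546 and 2.08 FPKM in purple grain, against 4624, 2130 and 5375 FPKM in white grain (log2 difference -11.84 ± 1.15, SE; edgeR adjusted p = 0.00659). Of 12 low molecular weight or other glutenin genes, 4 were lower, 2 of them on 1B, and 0 higher. The largest difference was at TraesCS1A02G010900 on 1A, with 0, 0.0483 and 0.0570 FPKM in purple grain, against 27.8, 678 and 3841 FPKM in white replicates 1, 2 and 3 (edgeR adjusted p = 0.0265), a gene that varied 138-fold among the white libraries. It passed the expression filter through white grain alone, so its call was partly set by that filter. Of 7 avenin-like genes, 1 was lower, the 1B gene named above. Alpha/beta-gliadin genes (44 tested, on the group 6 chromosomes or unplaced) had 0 calls by edgeR, with 3 genes at an unadjusted p under 0.05. High molecular weight glutenin genes (4 tested, on the long arms of group 1) had 0 calls and 0 genes at that level. Over all tested genes, 12967 of 48492 reached it. The median log2 differences of these families were 0.03 and 0.25. The 15 globulin or triticin genes had a median log2 difference of 1.99, and 8 had an unadjusted edgeR p under 0.05. Of the 15, 4 had every purple library above every white one, where 13.3% of all tested genes did. In this family 1 gene was called higher and 0 lower. The higher one, the 12S globulin gene TraesCS1B02G084300, lies farther along 1B. It had 24.1, 36.3 and 92.2 FPKM in purple grain, against 2.71, 1.39 and 1.23 FPKM in white grain (log2 difference 4.92 ± 0.70, SE, edgeR adjusted p = 0.0170). That call was lost without purple replicate 2, white replicate 2 or white replicate 3 (edgeR adjusted p = 0.0561, 0.0719 and 0.0691). Over these families 11 genes were lower, which became 1 without purple replicate 2, 3 without purple replicate 1, 6 without white replicate 3 and 17 without purple replicate 3. Lower calls over all tested genes moved from 1127 to 351, 562, 405 and 2411 in the same fits.

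The genes most like the 4 were sought among the 18097 genes averaging 5 FPKM or more, by Pearson r of log2(FPKM + 1) with the mean of the 4 over the 6 libraries, which is dominated by the difference between grain types. The 5 highest, each with r above 0.99, included the omega-gliadin genes TraesCS1B02G011467 and TraesCS1B02G011460. The others were TraesCS3B02G021400, a gene of no known function on 3B with 0 counts in purple grain and 9.30, 15.8 and 12.2 FPKM in white grain, TraesCS2B02G236000, described as a mitochondrial pyruvate carrier, with 1.09 ± 0.121 FPKM in purple grain and 13.2 ± 2.58 FPKM in white grain, and TraesCS1B02G142400, of no known function, with 11.8 ± 0.624 FPKM in purple grain and 58.6 ± 7.86 FPKM in white grain (SD, n = 3). In all, 81 genes reached r of 0.99, of which 2 were omega-gliadin genes.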

How the data were processed

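Messenger RNA was sequenced from grain, 3 libraries each of a purple-grained and a white-grained wheat. Cutadapt, HISAT2 and StringTie are named in the submitters' processing notes; strand setting, genome build, annotation and the tools' versions and roles are not given in the sources used here. The deposited table has whole-number counts per gene, per the file headers, and FPKM values scaled by the authors. The authors wrote 0.0001 wherever the count was 0, read here as 0. A further 12 measurement columns match no labelled sample and were not used. Identifiers, positions and descriptions are the table's, and 0 identifiers matched the supplied reference gene table.

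The 4 genes and all gene lists were chosen with earlier results of these data known. Families were set by description. By rule, the genes named are the 4, other omega-gliadin genes averaging 1 FPKM or more, the most expressed and the most changed called gene of each other family, the 4 nearest expressed genes on each side on 1B and the 5 most alike; the most expressed genes of other families were left out of the text. Genes averaging 0.5 FPKM or more, 48492 in all, entered edgeR 4.0.16 in R 4.3.3 (TMM scaling, trended dispersion, quasi-likelihood test, Benjamini-Hochberg adjustment), a step tested on simulated data. The common biological coefficient of variation was 0.488. A log2 difference is purple over white, and its SE is its size over the square root of F. Where purple grain had 0 counts, the fold is a bound on TMM-scaled counts with 3 counts in each purple library. Of the 6 pairs of libraries within a grain type, 0 held identical counts, and the mean chi-square per gene was at least 147, so each was kept as a replicate. Alternatives covered scaling, filter, test (DESeq2 1.42.0, limma 3.58.1), pseudocount, floor, fold threshold, replicate block and leaving out each library.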

Additional observations from a re-analysis of the deposited data

How the results depend on the processing

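The listed genes had 0 counts in each purple library, and their smallest fold bound of 1105 was 3314 with 1 count allowed in place of 3, 1103 with DESeq2 size factors, 1244 with total counts and 922 to 1312 without any single library. The number of genes with 0 counts in purple grain and a white mean at or above that of the lowest listed gene was 4 to 7 without any single library, and 5 with up to 3 counts allowed per purple library. The unlisted omega-gliadin genes had 4 lower and 0 higher calls under each alternative of scaling, filter and test, and 4 to 5 lower without any single library. Genes beside the listed 1B genes had 11 to 14 lower calls under those alternatives and 5 to 13 without any single library, and 0 higher in all. Lower genes of other storage families ran from 1 to 17 without any single library; the 1 higher gene became 10 with DESeq2 and 0 to 5 without any single library. Over all genes, 1391 higher and 1127 lower became 4561 and 3008 with DESeq2, 229 to 2562 and 351 to 2411 without any single library, and limma on log2(FPKM + 0.1) called 2008 lower; the cause was not tested. With scaling to total counts the median log2 difference over all genes was -0.11, against 0.02 with TMM, and that of the unlisted omega-gliadin genes was -0.73, against -0.58. The difference in summed FPKM of the other gliadin genes was -42660 to 4589 without any single library, and turned to 4589, 2956 and 498 without purple replicate 1, purple replicate 2 and white replicate 3, where the cause was not tested. Of the 5 genes most like the listed ones, 3 were the same with a pseudocount of 0.1.

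Deviations of same-numbered libraries from their group means correlated at 0.183, 0.00657 and 0.336, so the numbers were not taken as pairs. With a replicate block, edgeR called 1551 genes higher and 996 lower, the unlisted omega-gliadin genes had 4 lower calls, genes beside the 1B pair 13, and other storage families 12 lower and 4 higher; for the summed gliadin FPKM a sign-flip test over the same pairing gave p = 0.75 by exact permutation, the smallest possible being 0.25. With 3 libraries per grain type a permutation test over libraries cannot go below 0.1.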

Other observations

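The 4 listed genes differed by 2.27- to 2.68-fold between the lowest and the highest white library, whereas 6 other storage protein genes, all on 1A, differed by 38.5- to 1554-fold. These 6 were picked out after their values were seen. White replicate 1 was the high library for a pair of them. The omega-gliadin gene TraesCS1A02G033501 had 648, 0.417 and 0.774 FPKM in white replicates 1, 2 and 3, and the gamma-gliadin gene TraesCS1A02G007300 had 1068, 1268 and 5412 FPKM in purple grain, against 1726, 5.12 and 8.81 FPKM in white replicates 1, 2 and 3. For the other 4 it was the low one. The gamma-gliadin gene TraesCS1A02G007344 had 4.14, 3.15 and 23.6 FPKM in purple grain, against 18.8, 2619 and 4222 FPKM in the white libraries, and TraesCS1A02G007200, also a gamma-gliadin gene, had 2.66, 3.64 and 11.3 FPKM in purple grain, against 7.83, 375 and 553 FPKM in the white libraries. The glutenin genes TraesCS1A02G010900 (low molecular weight) and TraesCS1A02G317311 (high molecular weight, on the long arm) had 27.8 and 13.6 FPKM in white replicate 1, below 678 and 356 in white replicate 2 and 3841 and 525 in white replicate 3. At all 4 listed genes white replicate 1 was the lowest white library with 1744 to 12125 counts.

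The mirror of the listed genes, with 0 counts in white grain and a purple mean at or above that of the lowest listed gene in white grain, was met by 1 gene. TraesCS6A02G103300, of no described function on 6A, had 3778, 14830 and 524 counts in purple replicates 1, 2 and 3 and 0 in each white library, or 61.7, 255 and 10.8 FPKM in purple grain and 0 in white grain. It was at least 1954-fold higher in purple grain and was named after its values were seen. Since this same difference picked it, the fold is a description without a test.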
